A study of Mus musculus with 2 samples.

Results

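The genes described here are 10 genes of nonhomologous end joining, listed by name: Xrcc5, Xrcc6, Prkdc, Dclre1c, Xrcc4, Lig4, Nhej1, Trp53bp1, Rif1 and Mad2l2. They were looked up among 21532 protein-coding genes that have an annotated start on the mm10 build, and all 10 were found. The data were ELF1 ChIP-seq peak lists from CH12.LX, an immortalized mouse B-cell lymphoma line from a female mouse of strain B10.H-2aH-4bp/Wts. An antibody against ELF1, an ETS family transcription factor that binds DNA around a GGAA core, brought down chromatin fragments, and a peak marks where they piled up. The labels give 1 group of 2 biological replicates of this single line, with no treatment and no second genotype, so no condition could be compared and no test across samples is given. Expression was not measured, so the cell type could not be checked against marker genes. A peak was assigned to a gene when its summit lay inside the gene or within 50 kb of a start, and it was a promoter peak when the summit lay within 1 kb of a start.

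Nonhomologous end joining rejoins the ends of a broken chromosome without a template. The Ku dimer holds the ends and recruits DNA-PKcs, the nuclease Artemis opens or trims them, and XRCC4, XLF and DNA ligase IV seal them. In B cells the same machinery joins the breaks of V(D)J recombination and of class switching, where 53BP1, RIF1 and the REV7-containing shieldin complex protect the ends from resection.

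The lists held 29086 optimal peaks, 27399 conservative peaks and 300000 entries for each replicate on mm10, and 18804 peaks on mm9. The optimal list was drawn from the pooled and the single-replicate lists by their reproducibility, and its signals are those of the pooled data. The replicate lists hold background as well as peaks. A gene was therefore counted as found in a replicate only through an entry among the 29086 strongest of that list. Quoted replicate signals, replicate medians and replicate ratios used entries of any rank. Signal is the caller's own value for each peak on a scale that is not given. Read depth is unknown from these lists, so differences in signal carry no counting error here.

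All 10 genes had an ELF1 promoter peak in the optimal list, where 42.3% of all protein-coding genes had such a peak. The signals differed 15.4-fold, from 27.6 at Trp53bp1 to 425 at Dclre1c, with a median of 73.2 over the 10 genes. Over all 9098 genes with a promoter peak the median was 97.6 and the middle 50% lay between 47.3 and 200. Among the 10, 4 genes stood above the median of bound genes, and these were Dclre1c, Xrcc4, Lig4 and Prkdc. In replicate 1 alone the same 4 stood above the median, and in replicate 2 alone 3 did, since Prkdc had 51.2 against a median of 56.6. Nhej1, Trp53bp1, Rif1 and Mad2l2 all lay below 47.3 in the optimal list.

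**Figure D1:**
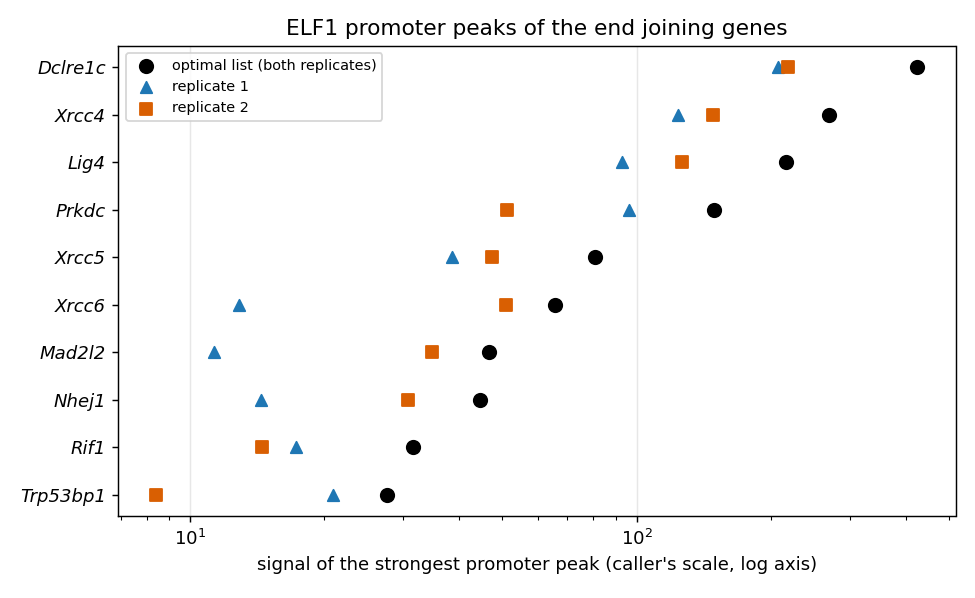
Signal of the strongest promoter peak of each gene (x axis, log scale, caller's units) in the optimal list and the strongest promoter entry in each replicate. Dclre1c was highest in all 3 lists, with 425, 207 and 218, and the replicates stood farthest apart at Xrcc6, with 12.9 and 51.1.

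**Figure D2:**
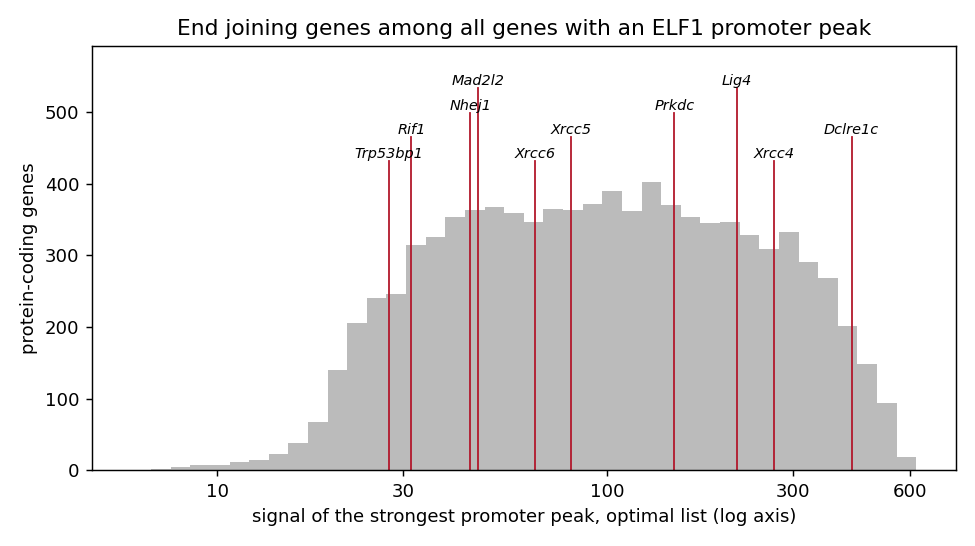
Histogram of the strongest promoter signal in the optimal list (x axis, log scale) over 9098 protein-coding genes (y axis, number of genes), with a red line at each end joining gene. The lines run from Trp53bp1 at 27.6 to Dclre1c at 425, and 4 of them stand above the median of 97.6.

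The break ends are first held by Ku80, the product of Xrcc5, and Ku70, the product of Xrcc6. At Xrcc5 the peak had a signal of 80.8 in the optimal list, 38.6 in replicate 1 and 47.4 in replicate 2. It covered chr1:72307346-72307709 on mm10, with the summit 107 bp inside the gene from its start at 72307421. The signal was higher than at 43.2% of bound genes. The mm9 peak of Xrcc5 lay in the annotated 5′ UTR, 79 bp inside the gene. The stretch below was chosen because it lies at that summit and holds a pair of GGAA cores, 1 on each strand. It is read from the mm9 plus strand at chr1:72354064-72354093, and capitals mark GGAA or its complement TTCC.
Xrcc5: gttgcgacactctaggtTTCCgcccGGAAa

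At Xrcc6 the peak had a signal of 65.5 in the optimal list, 12.9 in replicate 1 and 51.1 in replicate 2. Replicate 2 was thus 3.96 times replicate 1, whereas the median over bound genes was 1.29 times. The peak covered chr15:82016132-82016495, and its summit lay 55 bp before the Xrcc6 start at 82016369. Desi1 starts head to head with Xrcc6, the nearest of its starts lying 111 bp away, and the summit fell between the gene starts. The other annotated start of Xrcc6, at 81987833, had no optimal peak within 1 kb. The 110 bases between the starts of Desi1 and Xrcc6 are shown because 4 GGAA cores cluster there around the summit, the nearest centred 5 bp from it. They are from mm10 at chr15:82016259-82016368, in the direction of Xrcc6, with GGAA or TTCC in capitals.
Xrcc6: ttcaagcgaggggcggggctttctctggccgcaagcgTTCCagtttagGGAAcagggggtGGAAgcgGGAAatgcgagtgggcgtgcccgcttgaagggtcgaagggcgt

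Prkdc encodes DNA-PKcs, the kinase that Ku recruits to the ends. It had a pair of promoter peaks. The stronger, at chr16:15637756-15637877, had signals of 149 in the optimal list, 96.2 in replicate 1 and 51.2 in replicate 2, with the summit 339 bp inside the gene from its annotated 5′ end at 15637444. The weaker, at chr16:15636684-15637047, reached 67.9 in the optimal list, 31.2 in replicate 1 and 35.7 in replicate 2, and its summit lay 578 bp before that end. The stronger peak was higher in replicate 1 and the weaker differed little, although replicate 2 gave the higher signal at most genes. Mcm4, a subunit gene of the replicative helicase, starts head to head with Prkdc, 44 bp from its 5′ end, so both peaks were shared.

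Dclre1c encodes Artemis, the nuclease that opens hairpin ends. Its peak was the strongest of the 10, with signals of 425 in the optimal list, 207 in replicate 1 and 218 in replicate 2. It ranked 295 of 29086 optimal peaks, and its signal was higher than at 96.5% of bound genes. The replicates gave ranks of 235 and 385. The peak covered chr2:3424003-3424301, and the summit lay 14 bp inside the gene from the start at 3424131. No other protein-coding gene started within 1 kb of the summit, and there was no other optimal peak in the gene or within 50 kb of its starts. The stretch below was chosen because it lies under that summit and holds CCGGAAGT, the only such word within 50 bp of any summit among the mm9 promoter peaks of these genes. A TTCC, which is GGAA on the other strand, stands beside that core, and the centre of CCGGAAG stood 2 bp from the mm10 summit. It is from mm10 at chr2:3424132-3424161, in the direction of the gene.
Dclre1c: gtgcgcaggTTCCcGGAAgtggcgcccagg

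Xrcc4 encodes the scaffold of the ligase complex. Its peak had signals of 269 in the optimal list, 124 in replicate 1 and 148 in replicate 2, above 84.3% of bound genes. It covered chr13:90089380-90089835, and the summit lay 37 bp inside the gene from the start at 90089608. Tmem167 starts head to head, 59 bp away, and shared the peak. The stretch between both starts is shown because it holds the CCGGAAG nearest the summit, centred 46 bp from it. It is from mm10 at chr13:90089609-90089666, in the direction of Xrcc4.
Xrcc4: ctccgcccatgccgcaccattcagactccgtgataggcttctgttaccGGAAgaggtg

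Lig4 encodes DNA ligase IV, which seals the break. Each of its annotated starts had a peak of its own, and both replicates found both. At the inner start, at 9976311, the peak at chr8:9976284-9976455 had signals of 216 in the optimal list, 86.8 in replicate 1 and 126 in replicate 2. At the outer start, at 9977680, the peak at chr8:9977672-9977880 reached 198 in the optimal list, 92.6 in replicate 1 and 104 in replicate 2. The order of the peaks thus turned between the replicates, and they could not be ranked. The outer peak was shared with Abhd13, which starts head to head 37 bp away. Both summits lay upstream of their start, by 70 bp and 74 bp. The sequences are shown because the starts differ in the ETS word near the summit. The window of the inner start, chr8:9976331-9976431 on mm10, holds 3 GGAA cores, 1 of them within CCGGAAG. The shorter stretch of the outer start, chr8:9977756-9977785, holds the core nearest that summit, 17 bp away, and no CCGGAAG. The CCGGAAG of the outer start lay 83 bp from the summit, outside this stretch but within the span of the peak. It is part of the longer word CCGGAAGT, which the inner window lacks. Both sequences are in the direction of Lig4.
Lig4 inner start: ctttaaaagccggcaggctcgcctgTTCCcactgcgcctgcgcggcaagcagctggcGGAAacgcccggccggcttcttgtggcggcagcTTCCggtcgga
Lig4 outer start: ctgttctccagcTTCCtcccgggagcgcga

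Nhej1 encodes XLF, which aligns the ends for the ligase. Its stronger promoter peak, at chr1:75124785-75125148, had a signal of 44.6 in the optimal list and 30.8 in replicate 2. Replicate 1 had no entry within 100 bp of that summit, and its strongest promoter entry, 14.4, lay 103 bp from it. The summit lay 259 bp inside the gene from the start at 75125226. A weaker peak 44 bp inside the gene had a signal of 9.79, with 14.2 in replicate 2 and no entry within 100 bp in replicate 1. The site was therefore weak, and its place was less certain than at the genes above.

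Trp53bp1 encodes 53BP1, a chromatin reader that shields break ends. Its peak had signals of 27.6 in the optimal list, 20.9 in replicate 1 and 8.42 in replicate 2. It was the weakest of the 10 in the optimal list and in replicate 2, whereas in replicate 1 Rif1 (17.3), Nhej1 (14.4), Xrcc6 (12.9) and Mad2l2 (11.3) were lower. Its signal was above 8.68% of bound genes in the optimal list and above 26.8% in replicate 1 alone. It ranked 11945 in replicate 1 but 52099 in replicate 2, outside the 29086 strongest, and the conservative list did not hold it. The peak covered chr2:121271241-121271604, and the summit lay 16 bp before the start at 121271407. The outermost annotated 5′ end of Trp53bp1, at 121296354, had no optimal peak within 1 kb and only entries of 3.37 and 3.83 in the replicate lists. The stretch around the summit is shown because its pair of GGAA cores lay 24 bp and 33 bp from the summit and neither stood within CCGGAAG. It is from mm10 at chr2:121271378-121271473, in the direction of the gene.
Trp53bp1: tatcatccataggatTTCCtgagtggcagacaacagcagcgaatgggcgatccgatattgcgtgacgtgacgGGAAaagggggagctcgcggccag

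Rif1 encodes an effector that 53BP1 recruits. Its peak, at chr2:52072724-52073087, had signals of 31.5 in the optimal list, 17.3 in replicate 1 and 14.5 in replicate 2. The summit lay 91 bp inside the gene from its 5′ end at 52072815. It was higher than at 12% of bound genes in the optimal list, 20.2% in replicate 1 alone and 3.12% in replicate 2 alone. No other optimal peak was assigned to Rif1.

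Mad2l2 encodes REV7, a subunit of shieldin and of DNA polymerase zeta. ELF1 was found at only 1 of its annotated starts. At the inner start, at 148140490, the peak at chr4:148139897-148140260 had signals of 46.7 in the optimal list and 34.8 in replicate 2, with the summit 411 bp before that start. Replicate 1 had 10.1 within 100 bp of that summit, and its strongest entry within 1 kb of the start was 11.3. A weaker peak 172 bp inside the gene from the same start had signals of 16.3 in the optimal list, 11.0 in replicate 1 and 7.93 in replicate 2. At the outer starts, at 148130158 and 148130920, no optimal peak lay within 1 kb, and the replicate lists held entries of at most 5.47. The start at 148130920 lies head to head with Draxin, 222 bp away. Its 300-base promoter window had a GC content of 79% and held no GGAA on either strand, whereas 95.7% of promoter windows held one. The window of the inner start held 3, at 251 to 311 bp from the stronger summit. Neither summit lay in that window. The stretch at the summit of the mm9 promoter peak, which the mm9 annotation places in an intron, is shown because its single core lay 49 bp from the summit. It is from the mm9 plus strand at chr4:147514141-147514241.
Mad2l2: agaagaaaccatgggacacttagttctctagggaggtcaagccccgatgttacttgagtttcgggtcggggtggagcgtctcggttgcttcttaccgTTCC

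Among the strongest entries of both replicates, 9 of the 10 genes had a promoter entry, against 40% of all protein-coding genes. The exception was Trp53bp1, through replicate 2. The entries had to lie within 1 kb of a start and not at the same summit. In replicate 1 the strongest promoter entry lay 103 bp from the optimal summit at Nhej1, 192 bp at Mad2l2 and 1379 bp at Lig4. With 50% as many entries from each replicate, 5 genes remained in both, against 31.4% of all protein-coding genes, and these were Xrcc5, Prkdc, Dclre1c, Xrcc4 and Lig4. Replicate 2 exceeded replicate 1 at 7 of the 10 genes. The log2 ratio of replicate 2 to replicate 1 was taken from promoter entries of any rank. It had a median of 0.36 and an SD of 0.50 over the 9094 bound genes with entries in both. Of these genes 90% lay between -0.33 and 1.29. Outside that range stood 4 of the 10 genes. Xrcc6 (1.99) and Mad2l2 (1.63, from entries at different summits) lay above it, and Prkdc (-0.91) and Trp53bp1 (-1.31) below it. Weaker peaks varied more, so bound genes were also split by signal into 4 groups of like size. There Xrcc6, Prkdc and Trp53bp1 still stood outside the central 90%. Of the 2274 genes in the signal group of Prkdc, 0 had a lower ratio, and 99.3% of the genes in the group of Xrcc6 did. Dclre1c (0.08), Xrcc4 (0.26), Xrcc5 (0.30) and Lig4 (0.44, from entries at different starts) stayed close to the median. With 2 replicates these ratios describe the libraries, and no test was made.

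**Figure D3:**
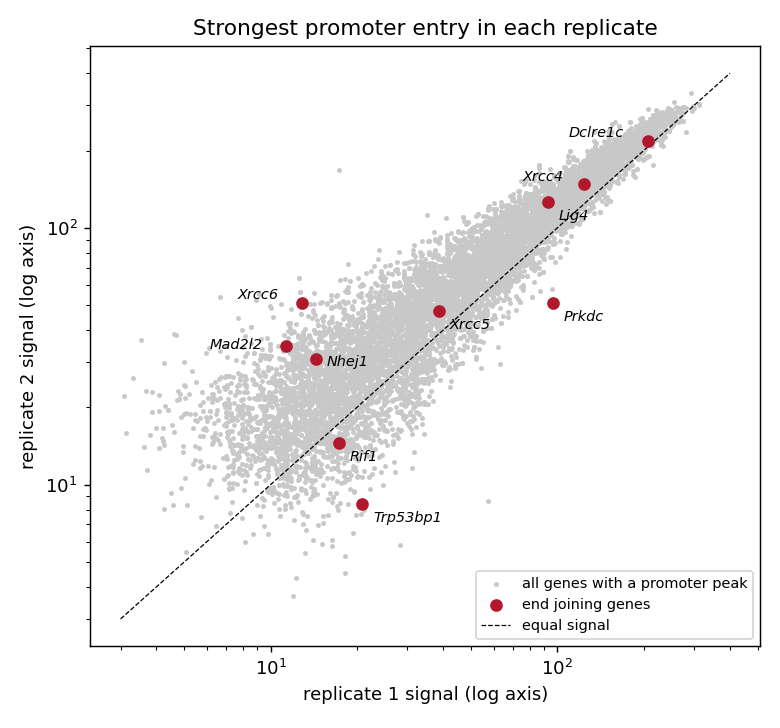
Strongest promoter entry in replicate 1 (x axis) and replicate 2 (y axis), both on log scales in the caller's units, for all genes with a promoter peak in grey and the end joining genes in red. Xrcc6 (12.9 and 51.1) lies at the upper edge of the grey points, and Prkdc (96.2 and 51.2) and Trp53bp1 (20.9 and 8.42) lie at the lower edge.

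In the optimal list every gene also met the wider rule of a peak inside the gene or within 50 kb of a start. Of all protein-coding genes 72% did. The genes had 29 peaks, of which 14 were promoter peaks, 1 lay within a gene and 14 lay outside. The farthest promoter peak stood 578 bp from a start, at Prkdc (signal 67.9), and the nearest other peak 11556 bp away, at Mad2l2 (132). No peak therefore lay near the 1 kb limit. Xrcc5, Dclre1c, Lig4, Trp53bp1 and Rif1 had promoter peaks only in the optimal list. Of the 15 peaks away from the genes' own starts, 9 lay within 1 kb of the start of another gene. The strongest near Xrcc6 was at Snu13, a gene for a small nucleolar RNA-binding protein (signal 245, with 95.7 and 147 in the replicates), 31.3 kb from the Xrcc6 start. Near Mad2l2 it was at Fbxo6, an F-box protein gene (132, with 62.8 and 67.8), near Nhej1 at Cnppd1 (131, with 58.6 and 72.7) and near Prkdc at Ube2v2 (86.9, with 29.1 and 57.5). These 4 peaks exceeded the genes' own promoter peaks at Xrcc6, Mad2l2 and Nhej1, and not at Prkdc. The only peak inside a gene body was in Xrcc4, 37.7 kb from its start at chr13:90051749-90052112, with signals of 39.3, 19.2 and 19.3.

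**Figure D4:**
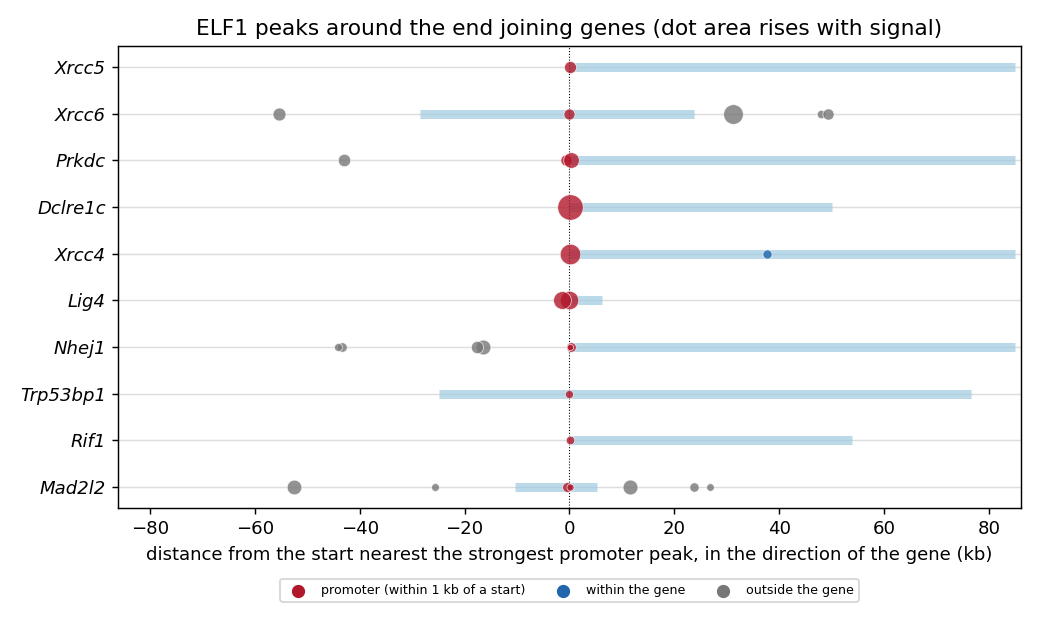
Optimal peaks assigned to each gene, by distance in kb from the start nearest its strongest promoter peak (x axis, positive in the direction of transcription), with dot area rising with signal and the gene's extent in light blue, drawn to at most 85 kb. Peaks gather at distance 0, and Xrcc6, Prkdc, Nhej1 and Mad2l2 have grey dots outside the gene.

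Some of the promoters were shared with a neighbouring gene. Of the 10 genes, 5 (50%) had a protein-coding neighbour starting head to head within 1 kb, against 9.64% of all protein-coding genes and 19.6% of the 9098 genes with a promoter peak. The pairs were Xrcc6 with Desi1, Prkdc with Mcm4, Xrcc4 with Tmem167, Lig4 with Abhd13 and Mad2l2 with Draxin. ELF1 peaks lay at the paired start in the first 4 pairs and not in the last. Of all head-to-head genes 86% had a promoter peak, and of the other genes 37.6%. Only the summit at Xrcc6 and Desi1 fell between the starts of the pair. A peak at such a pair cannot be given to either gene alone.

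ETS words were sought on both strands in the RefSeq promoter windows of GRCm38.p6, which run from 250 bases before to 50 after a start. Windows existed for 8 of the genes, 10 windows in all, and none for Prkdc and Rif1. The word CCGGAAG was present in 4 of the 10 windows, against 11.6% of 21262 protein-coding promoter windows, 22% of those of bound genes and 2.94% of those of unbound genes. The 4 windows belonged to Dclre1c, Xrcc4 and both starts of Lig4, the genes with the strongest peaks of the 8. The windows of Xrcc5, Nhej1 and Mad2l2 did not hold the summit of the strongest promoter peak. The letters at those summits were thus not searched on mm10, and the words were not compared at like places. The longer word CCGGAAGT, which contains it, was in 2 windows, of Dclre1c and of the outer start of Lig4, against 5.15% of all and 10.3% of those of bound genes. GGAA alone, contained in both words, was in 9 of 10 windows and in 95.7% of all, with 96.6% of those of bound genes and 95% of those of unbound genes. Of other promoter words, the GC box GGGCGG was in 8 of 10 windows, against 46.2% of all and 63.3% of those of bound genes. CCAAT was in 4, against 38.2% and 38.7%. GCATGCGC, part of the NRF1 site, was in 2, at Xrcc5 and the outer start of Lig4, against 3.51% and 5.92%. On the mm9 build, 4 of the 7 promoter peaks of these genes had CCGGAAG within 50 bp of the summit, against 26.8% of all promoter peaks and 18.8% of all peaks. They were at Dclre1c, at the inner start of Lig4 and at both summits of a single span at Xrcc4, so they were not separate promoters. Within 25 bp the count was 2 of 7, against 18.9% of promoter peaks and 13.3% of all peaks. All 7 had GGAA within 50 bp, as did 90.6% of promoter peaks. A word match describes the letters and was not tested as a binding site.

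CpG content of the promoter windows did not follow the order of the signals. The ratio of observed to expected CpG had a median of 0.567 over all promoter windows and 0.781 over those of bound genes. Dclre1c, with the strongest peak, had 0.505, close to Nhej1 (0.523) and Xrcc5 (0.527). Xrcc6 had the highest ratio, 1.04, followed by Xrcc4 (0.97) and the outer start of Lig4 (0.938). Trp53bp1 had 0.817 with the lowest signal in the optimal list. The inner start of Lig4 had 0.857, and Mad2l2 had 0.884 at the start facing Draxin and 0.659 at its inner start. The windows of Xrcc5, Nhej1 and Mad2l2 did not hold the summit of the strongest promoter peak, so their ratios do not describe the sequence at the summit. Prkdc and Rif1 had no window.

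The older mm9 list held promoter peaks for 5 of the 10 genes, against 36.9% of GENCODE M1 protein-coding genes. They were Dclre1c (signal 808), Xrcc4 (519 and 104, in 1 span), Lig4 (284 at the inner and 282 at the outer start), Xrcc5 (93.0) and Mad2l2 (43.9), on another scale than mm10. The order of these genes was the same as on mm10. The mm9 peak of Mad2l2 stood 100 bp before the GENCODE start at 147514291, and the positions of the peaks on the builds were not matched. Xrcc6, Prkdc, Nhej1, Trp53bp1 and Rif1 had none. For Trp53bp1 and Rif1 this was common among genes of like signal. Of genes with an mm10 signal within 10% of theirs, 28.8% and 52.5% had an mm9 promoter peak. For the other genes it was uncommon, since 94% of 546 genes with a signal within 10% of that of Prkdc had such a peak, as did 95.5% of 551 genes for Xrcc6 and 94.5% of 526 for Nhej1. The nearest mm9 peak to Prkdc was 43.3 kb from its start, at Ube2v2, and the nearest to Xrcc6 was 18.6 kb from a start. Rif1 had no mm9 peak in the gene or within 50 kb of a start. The only such peak of Trp53bp1, with a signal of 882, lay 33.8 kb from a start, at Tubgcp4 and Zscan29. Dclre1c also had an mm9 peak of 60.7 at Suv39h2, 22.2 kb from a start. At Nhej1 the mm9 annotation placed the start at 75093213, and a peak of signal 44.0 lay 28.2 kb before it at chr1:75121250-75121625. That peak stood 16.8 kb from the mm9 peak at the neighbouring gene Cnppd1, named 1810031K17Rik in the mm9 annotation. The mm10 promoter peak of Nhej1 stood 16.7 kb from the mm10 peak at the same neighbour. Whether the mm9 and mm10 peaks are the same site was not tested. Why Prkdc and Xrcc6 lacked mm9 promoter peaks was not tested.

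Other genes of double-strand break repair by end joining were read from a list of 36 genes that leaves out the 10 above. Of these, 34 had a promoter peak, against the same 42.3% of all protein-coding genes, and the same number had a promoter entry among the strongest of both replicates. The median signal of the 34 was 133. Peaks were found at 10 of 11 accessory factors of end joining, with a median signal of 172. The strongest were at Tdp1 (302), which removes stalled topoisomerase from DNA ends, Aptx (261), which reverses failed ligations, Aplf (248), a Ku-binding scaffold, and Polm (244), a gap-filling polymerase. Paxx (193), a paralog of XRCC4 and XLF, Cyren (151), Tdp2 (98.3), Poll (93.5) and Wrn (42.0) followed. Dntt, which encodes the terminal transferase of early lymphocytes, had no promoter peak and only an entry of 4.49 in replicate 1.

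In the 53BP1 and shieldin axis 9 of 9 genes had a promoter peak, with a median signal of 102. The shieldin subunit genes Shld1 (229), Shld2 (144) and Shld3 (36.5) differed widely, and the peak of Shld3 was shared with Trappc13 and Trim23. The genes of the CST complex, which fills in resected ends, had signals of 166 at Stn1, 105 at Ten1 and 64.7 at Ctc1. Paxip1 (102), Dynll1 (47.4) and Zfp280c (29.1) completed the list. Of the break sensing and signalling genes 10 of 10 had a peak, with a median of 154. Mdc1, a scaffold that binds phosphorylated histone H2AX, had the strongest (448), then came the MRN complex genes Mre11a (253) and Nbn (206) and the ubiquitin ligase gene Rnf168 (223). Chek2 (158), Kat5 (150), Atm (122), Rnf8 (121), Rad50 (96.1) and H2afx (46.5) were lower, and the peak of Atm was shared with Npat.

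Alternative end joining, which uses short homologies, had peaks at 5 of 6 genes, with a median of 49.1. Polq, which encodes its polymerase theta, had the strongest peak of all 46 genes examined, with signals of 511 in the optimal list, 255 in replicate 1 and 257 in replicate 2. Lig3 (266) followed, and Lig1 (49.1), Parp1 (37.2) and Xrcc1 (33.0) were low. Rbbp8, the CtIP gene, had no promoter peak and entries of 4.42 and 3.57 in the replicates. The end joining ligase gene Lig4, with 216, thus lay between the ligase genes of this list, Lig3 (266) and Lig1 (49.1).

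**Figure D5:**
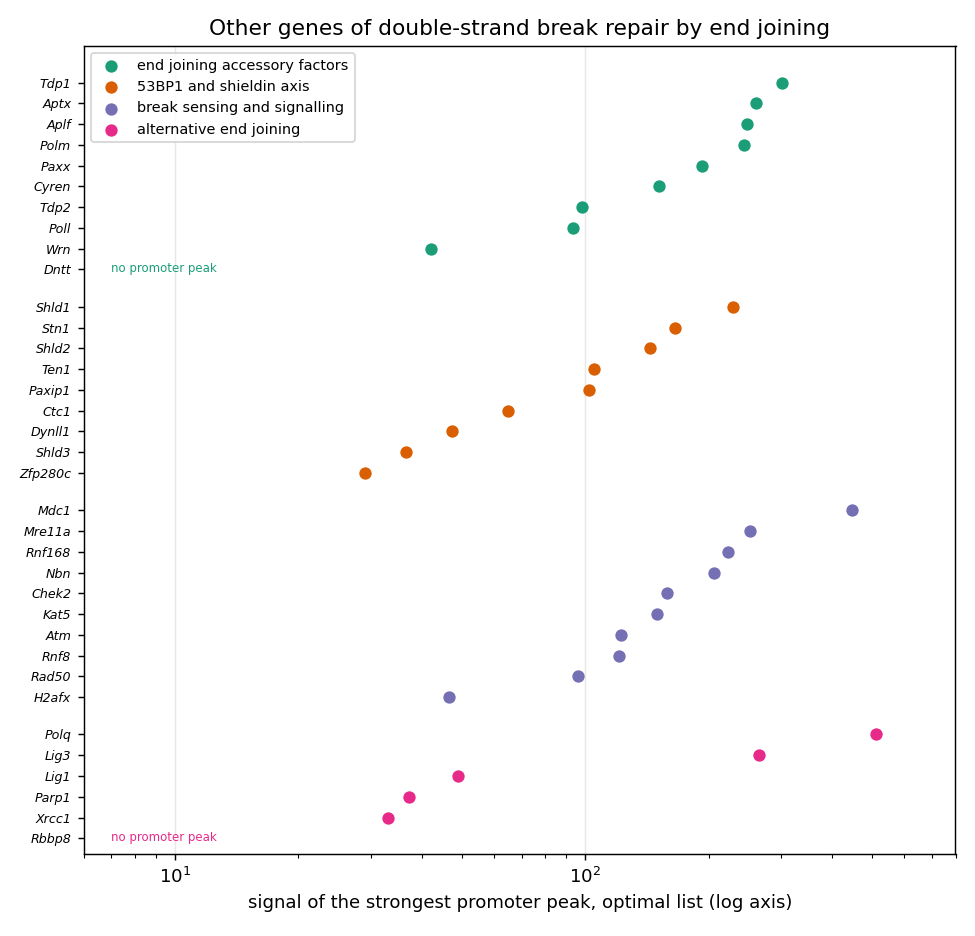
Signal of the strongest promoter peak in the optimal list (x axis, log scale) for 35 of the 36 other genes, grouped by role and ordered within the group. Polq (511) and Mdc1 (448) are highest, and Dntt and Rbbp8 have no promoter peak.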

How the data were processed

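The 10 genes and the gene lists were chosen with earlier results of these data known. Per the labels, ELF1 ChIP-seq was done on 2 biological replicates of CH12.LX. Per the deposited README text, each replicate's list was derived from its own mm10 alignments and a control, the optimal and conservative lists by irreproducible discovery rate, and the mm9 list from both replicates. Which aligner and caller were used is not given in the sources used here. In the deposited lists, column 7 is the peak signal. Column 9 is taken as a score in the deposited mm10 lists and as the −log10 of a q-value in the deposited mm9 list, and neither was used. Starts on mm10 came from the RefSeq GRCm38.p6 promoter table and from each gene's 5′ end in the RefSeq gene table. The strand came from that promoter table for 17491 genes and by symbol or synonym from GENCODE M1 for 4041. The 351 genes without strand were left out. GENCODE M1 transcript starts served mm9. No coordinates were converted. The named genes were the 10 genes, genes sharing their promoter peaks, the whole pathway list and each gene's strongest other peak. A pathway gene is counted but not reported here by name. Assignment of peaks to genes was checked on simulated peaks. The calculations used Python 3.11.15, numpy 2.4.6 and pandas 2.3.3.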

Additional observations from a re-analysis of the deposited data

How the results depend on the processing

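The count of end joining genes with a promoter peak was 10 and lay between 7 and 10 over 9 alternatives. It was 9 in the conservative list, without Trp53bp1 (41.6% of all protein-coding genes), and 8 in the stronger 50% of optimal peaks, without Trp53bp1 and Rif1 (34.1%). It was 9 without replicate 1 (43.1%) and 10 without replicate 2 (42.7%), and the count of pathway genes was 34 both times. With the outer 5′ end of each gene as its only start, an alternative chosen after seeing the data, 7 genes were left, without Xrcc6, Trp53bp1 and Mad2l2 (39.1%). The starts of the promoter table alone, also chosen after seeing the data, gave 8 (42.4%), because that table has no rows for Prkdc and Rif1. The count of pathway genes lay between 27, with the starts of the promoter table alone (42.4%), and 34, as in the main setting (42.3%). The 29 peaks assigned to the genes became 19 with a window of 20 kb, 54 with 100 kb, and 28 to 35 with a replicate left out. The 9 genes found in both replicates became 5 with 50% as many entries (31.4% of all genes). The 4 mm9 peaks with CCGGAAG became 2 within 25 bp and 7 with the word GGAA, against 18.9% and 90.6% of promoter peaks. A single replicate moved the percentile of the promoter signal among bound genes by over 1.5 times at Xrcc6 (36 to 9.51 without replicate 2), Mad2l2 (24.6 to 4.51 without replicate 2), Nhej1 (22.9 to 13.7 without replicate 2), Trp53bp1 (8.68 to 26.8 without replicate 2) and Rif1 (12 to 20.2 without replicate 2 and 3.12 without replicate 1). At Prkdc it was 65.1, and 47.3 without replicate 1. The mm9 count of 5 genes (36.9% of GENCODE M1 protein-coding genes) lay between 4 and 5. It was 4 in the stronger 50% of mm9 peaks (27.1%) and with the outermost start of each gene alone (34.3%). No paired analysis was possible because there was 1 group. Depth was not known, so no limit could be set on the signal of a missing peak.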
